A study of Homo sapiens with 9 samples.

Results

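The 3 libraries titled shMETTL3 guide 2 were compared directly with the 3 titled shMETTL3 guide 1, which together make up 6 of the 9 RNA-seq libraries of the study. All are from LNCaP:C4-2, a castration-resistant derivative of the LNCaP prostate cancer cell line. The members of the comparison are the genes with enough counts to be tested, 19278 of the 60675 in the files. METTL3 is the catalytic subunit of the complex that writes N6-methyladenosine (m6A) on RNA. Each population carried an shRNA against METTL3 in a doxycycline-inducible pLKO.1-puro lentivirus, produced in HEK293T cells. Cells were kept in puromycin at 1 μg/ml for 3 weeks, and knockdown was induced with doxycycline at 1 μg/ml for 6 days in medium with charcoal-stripped serum, which is poor in steroids. These steps are described for all groups, the 3 shScramble control libraries included, although the titles name a vehicle. Each group is 1 selected population per hairpin as far as the sources state, so a difference between the guides cannot be told apart from a difference between the populations that grew out of selection. Experiments are described as done in triplicate, but the sources do not say whether the 3 libraries of a group came from separate cultures, and p-values then measure only the spread between these libraries.

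The target sequences are shown because they are the only designed difference between the 2 guide groups. Both are read 5′ to 3′ on the METTL3 transcript, and the capitals in guide 2 mark the 9 bases that lie in exon 5, after the junction with exon 4.
shMETTL3 guide 2: gctgcacttcagACGAATTAT
shMETTL3 guide 1: cgtcagtatcttgggcaagtt
On chromosome 14 (GRCh38, minus strand), the guide 2 site lies at chr14:21501728-21501739 and chr14:21501121-21501129, and the guide 1 site at chr14:21500633-21500653 in exon 6 of METTL3-201. Both sites are in coding exons, and each sequence matched transcripts of 1 gene.

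METTL3 itself was measured first. Levels are given throughout as CPM, the reads of a gene scaled to a common library size with TMM factors. Guide 2 libraries had METTL3 at 16.6, 16.5 and 15.8 CPM. In the libraries labelled guide 1 it was at 29.4, 30.1 and 29.6 CPM. The 3 guide 2 values were all lower and the groups did not overlap. The means were 16.3 ± 0.423 and 29.7 ± 0.378 CPM (SD, n = 3), so guide 2 held 54.9% of the guide 1 level, with a log2 fold change of -0.86 (SE 0.0689, adjusted p = 5.3e-12). An exact two-sided permutation test of the CPM gave p = 0.1, which is the smallest that 3 against 3 libraries allow. The shScramble mean was 31.5 ± 1.59 CPM. METTL3 RNA was thus close to the control level in the libraries labelled guide 1, which are named by their label throughout. The direction of every difference below is one between these populations. An effect of METTL3 loss cannot be told apart from other differences between them, and its part was not tested.

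The guide 2 libraries held 23790004 to 26705741 assigned reads and the libraries labelled guide 1 held 26671775 to 29422737. More genes had at least 1 read in the libraries labelled guide 1 (29193 to 29628) than in guide 2 (24884 to 26505). Across tested genes, log2 CPM correlated at 0.9007 to 0.9034 between libraries of the 2 guides and at 0.991 or more within a guide. As a description, each guide's libraries were closer to shScramble (0.9687 to 0.9738 for guide 2, 0.9368 to 0.9383 for guide 1) than to each other.

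The cell type was checked with marker genes. All 13 luminal prostate markers were above the floor of 3 counts per library in both guide groups, and their summed level was 4071 to 4271 CPM in guide 2 and 1947 to 2037 CPM in the libraries labelled guide 1. Of 10 fibroblast markers, 8 were at the floor in guide 2 and 6 in the libraries labelled guide 1, including COL1A2, DCN and LUM in both. The sums were 37.3 to 40.6 and 19.99 to 26.4 CPM, most of it COL1A1, at 33.2 to 36.6 and 18.6 to 24.5 CPM. Endothelial markers (4 of 8 and 3 of 8 at the floor, PECAM1 in both) summed to 3.31 to 3.76 and 1.51 to 1.84 CPM. Leucocyte markers (6 of 9 and 5 of 9 at the floor, PTPRC in both) summed to 0.866 to 1.09 and 1.98 to 2.32 CPM. Smooth muscle markers (2 of 5 and 1 of 5 at the floor, DES in both) summed to 5.53 to 7.53 and 12.6 to 13.6 CPM. Most of this was TAGLN, at 4.12 to 5.90 and 8.62 to 9.31 CPM.

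A further list of 6 genes was added after the values were seen: NEFL, NEFM, INA, VIM, CDH2 and PAX2, which are known to be expressed in embryonic kidney cell lines of the kind used to package the virus. Their summed level was 4.26 to 4.68 CPM in guide 2, 31.8 to 34.96 CPM in shScramble and 295.3 to 335.9 CPM in the libraries labelled guide 1. VIM had the largest part of the sum, at 132 to 169 CPM in the libraries labelled guide 1. PAX2 was low throughout, at 0.2265 to 0.4332 CPM in guide 2, 0.6998 to 0.8727 CPM in shScramble and 1.504 to 2.444 CPM in the libraries labelled guide 1. In guide 2, 1 of the 6 was at the floor, and in the other groups none was. NEFL, NEFM, INA, VIM and CDH2 also belong to the lists below, so this list is not separate from those results. Its part in the differences below was not tested. Bulk RNA cannot tell a different share of cells from a different amount of RNA per cell. Of 76 tested genes at the floor in all guide 2 libraries and at a mean of at least 5 CPM in the libraries labelled guide 1, the shScramble level was 8.003% of the guide 1 level in the median, with quartiles of 5.53% and 11.4%. There was no tested gene (0) in the reverse class, at the floor in the libraries labelled guide 1 and at 5 CPM or more in guide 2. Both classes were defined by the compared values, and genes at the floor in a guide passed the count filter only through other groups. These numbers therefore describe the chosen genes and are no test.

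Across all 19278 tested genes, 9125 were called at an adjusted p under 0.05 and a fold of at least 1.5, which is 47.3% of those tested. Of these, 3683 (19.1% of tested genes) were higher in guide 2 and 5442 (28.2%) were lower. The median log2 fold change was -0.06. Without TMM factors, on library size alone, this median moved to -0.20, a shift past 0.1, and log2 differences near 0 are read against it. For 14613 genes (75.8%) the 3 libraries of 1 guide did not overlap the 3 of the other, so a lack of overlap is common here and sets no gene apart. Replicates lay close together (biological coefficient of variation 0.0512).

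**Figure D1:**
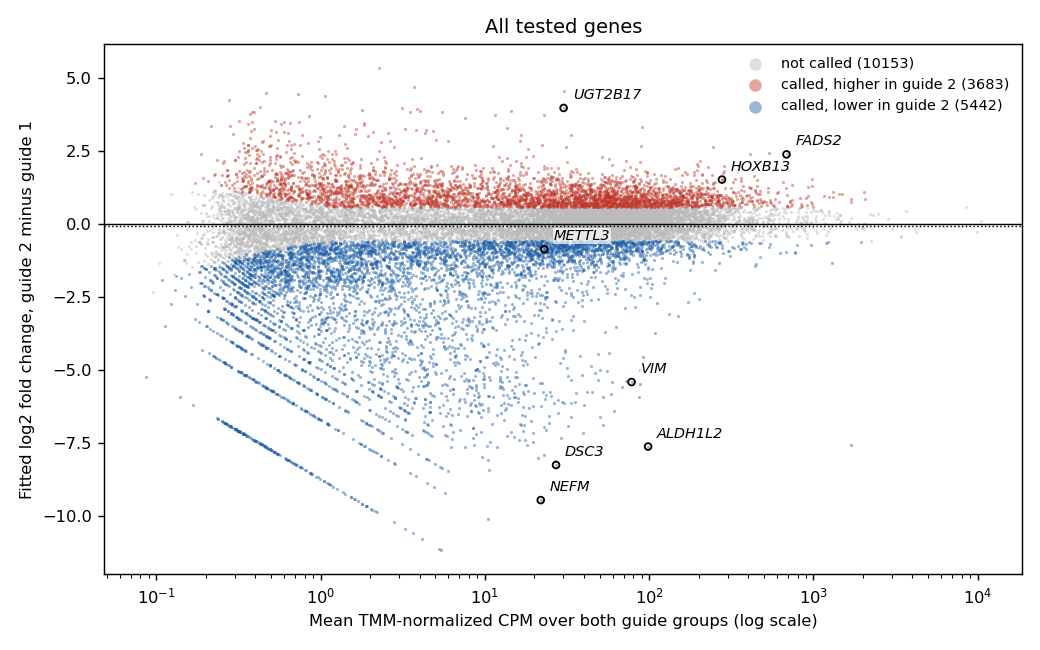
Fitted log2 fold change, guide 2 minus guide 1, of each tested gene against its mean TMM-normalized CPM over both guide groups (log axis). Red points (3683) were called higher in guide 2, blue points (5442) lower and grey points (10153) were not called, and the dotted line marks the median of -0.06. The blue points reach much farther from 0 than the red ones, and the slanted lines of points at the lower left are genes with few or no counts in guide 2.

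Gene lists for lineage, adhesion, signalling and metabolism held 1307 genes, of which 1087 were tested and 675 were called (62.1%, beside 47.3% of all genes). SOD2 was not matched to a count record and is among those not tested. The lists were chosen with earlier results of these data known, so their higher called share cannot be told apart from that choice. In the lineage lists, 122 of 156 tested genes were called, 31 higher and 91 lower in guide 2, with a median log2 fold change of -1.46. In the adhesion lists, 61 of 207 were higher and 90 lower (median -0.12). In signalling, 93 of 370 were higher and 125 lower (median -0.03). The metabolic lists leaned the other way, with 121 of 354 higher and 63 lower in guide 2 (median 0.31). The called share of single lists ran from 31.2% to 88.9%. It was near or under the 47.3% of all genes for one-carbon metabolism (31.2%), cell cycle (37.8%), glycolysis (42.9%), the TCA cycle (48.6%), TGF-beta and BMP (50.9%), arginine and nucleotides (52.5%) and Wnt (55.3%), and for these the number of called genes is no result about the list. A set of 75 genes was named by a fixed rule, and genes outside it that are named below were chosen after their values were seen.

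**Figure D2:**
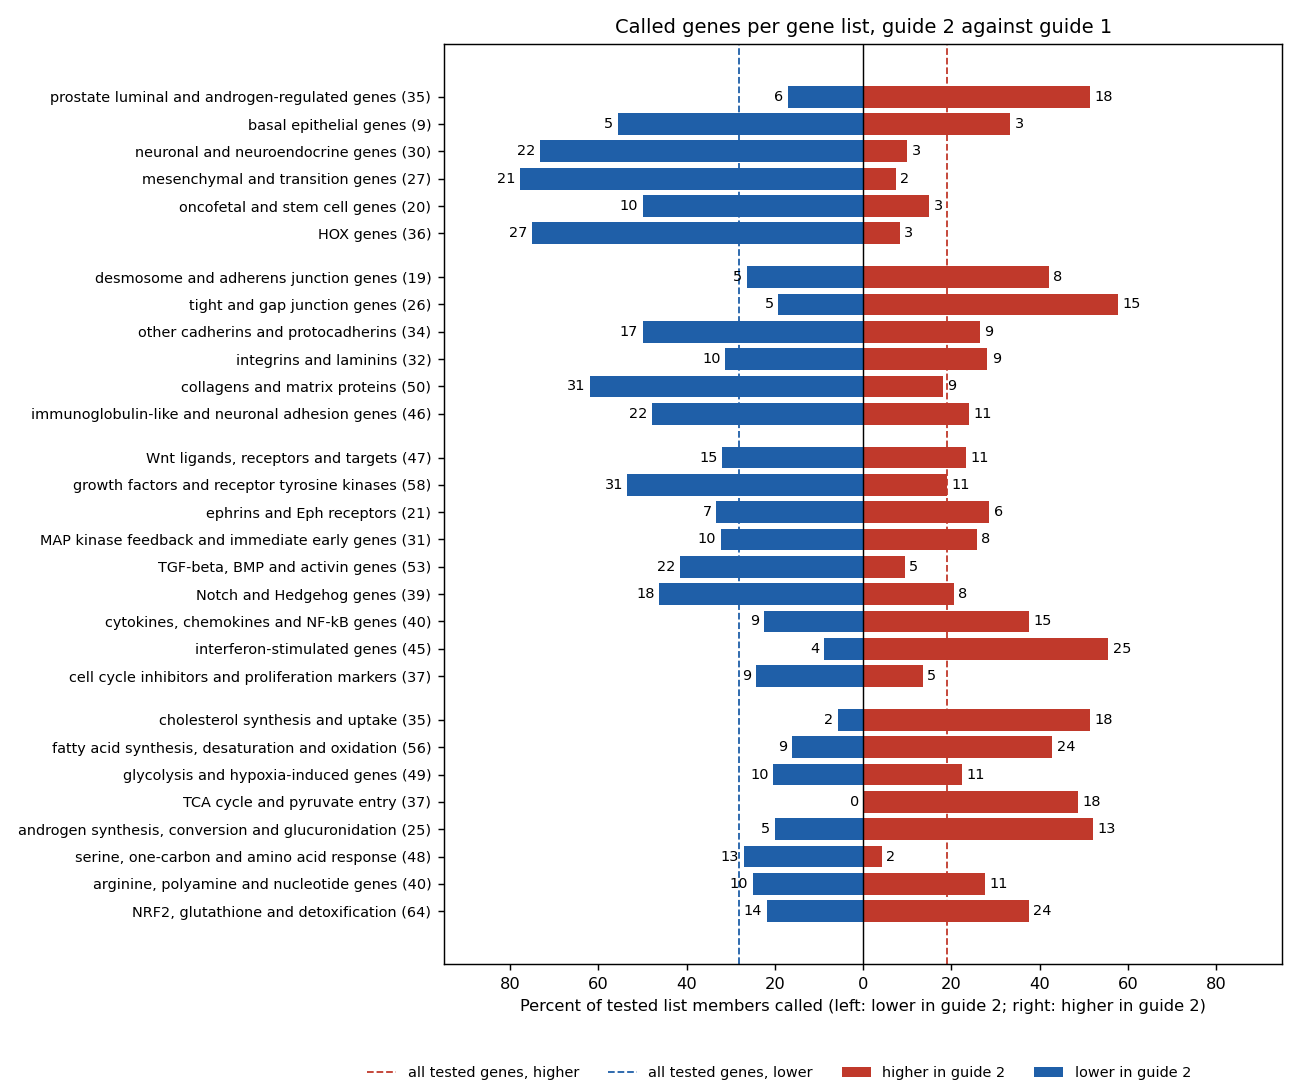
Percent of the tested members of each of 29 gene lists that were called lower (blue, to the left) or higher (red, to the right) in guide 2, with the number of genes at the end of each bar and the number tested in parentheses. Dashed lines mark the shares over all tested genes, 28.2% lower and 19.1% higher. Mesenchymal, neuronal and HOX genes extend farthest to the left, and tight junction, interferon, cholesterol and luminal genes extend far to the right.

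Luminal cells of the prostate are secretory epithelial cells that express simple keratins, the transcription factors FOXA1 and HOXB13, and androgen-regulated proteases and membrane proteins. Of 35 tested luminal and androgen-regulated genes, 18 were higher in guide 2, 6 were lower and 11 were not called, with a median log2 fold change of 0.60. FOXA1, a pioneer factor that opens chromatin for steroid receptors, was at 547, 519 and 523 CPM in guide 2. In the libraries labelled guide 1 it was at 204, 221 and 217 CPM. All guide 2 values were above the highest guide 1 value, with a log2 fold change of 1.31 (SE 0.0478, adjusted p = 1.52e-19). HOXB13, the homeobox factor of the posterior prostate lineage, was at 411, 388 and 435 CPM against 138, 145 and 147 CPM. The groups were apart here too, by a log2 fold change of 1.52 (SE 0.0493, adjusted p = 9.55e-21). The shScramble means of FOXA1 and HOXB13, 426 ± 16.3 and 239 ± 8.60 CPM, lay between those of the guides.

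FOLH1, the prostate-specific membrane antigen, was higher too, at 1300.5 ± 23.4 CPM in guide 2 and 544 ± 11.8 CPM in the libraries labelled guide 1 (log2 fold change 1.26, SE 0.0467, adjusted p = 2.23e-19). AMACR, a peroxisomal racemase used as a prostate cancer marker, had the largest rise of the list, from 6.01 ± 0.421 to 29.6 ± 2.58 CPM in guide 2, but 64.8% of its exon bases are shared with the readthrough gene C1QTNF3-AMACR. The keratins of simple epithelia followed the same direction. KRT8 was at 335 ± 11.5 against 196 ± 8.01 CPM, and KRT18 at 179 ± 14.3 against 113 ± 7.32 CPM, with log2 fold changes of 0.78 and 0.67. The shScramble means were 370 ± 11.3 CPM for KRT8 and 194 ± 15.4 CPM for KRT18, both above the guide 2 means. For FOLH1 and AMACR they were 1210.5 ± 23.8 and 12.6 ± 0.871 CPM, between those of the guides. KRT18 was no longer past the fold limit on library size alone (log2 fold change 0.53), and both keratins have many near-identical pseudogenes with which reads can be shared.

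KLK3 and TMPRSS2 are androgen-regulated protease genes. KLK3, which encodes prostate-specific antigen, was at 6.72, 7.85 and 7.71 CPM in guide 2 and at 13.8, 14.1 and 15.7 CPM in the libraries labelled guide 1. It was thus lower in all 3 guide 2 libraries, with a log2 fold change of -0.97 (SE 0.104, adjusted p = 2.28e-09), while the shScramble mean of 13.1 ± 1.40 CPM lay beside the guide 1 values. TMPRSS2, an androgen-induced membrane protease, was at 50.7, 50.8 and 52.3 CPM in guide 2 and at 30.2, 40.8 and 33.5 CPM in the libraries labelled guide 1. Its log2 fold change of 0.56 (SE 0.076) was short of the fold limit, and without replicate 2 of guide 1 it was 0.69 and passed. MAF, a leucine zipper factor that was counted with this list, was the member farthest in the other direction, at 1.15 ± 0.322 CPM in guide 2 and 33.2 ± 0.751 CPM in the libraries labelled guide 1.

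**Figure D3:**
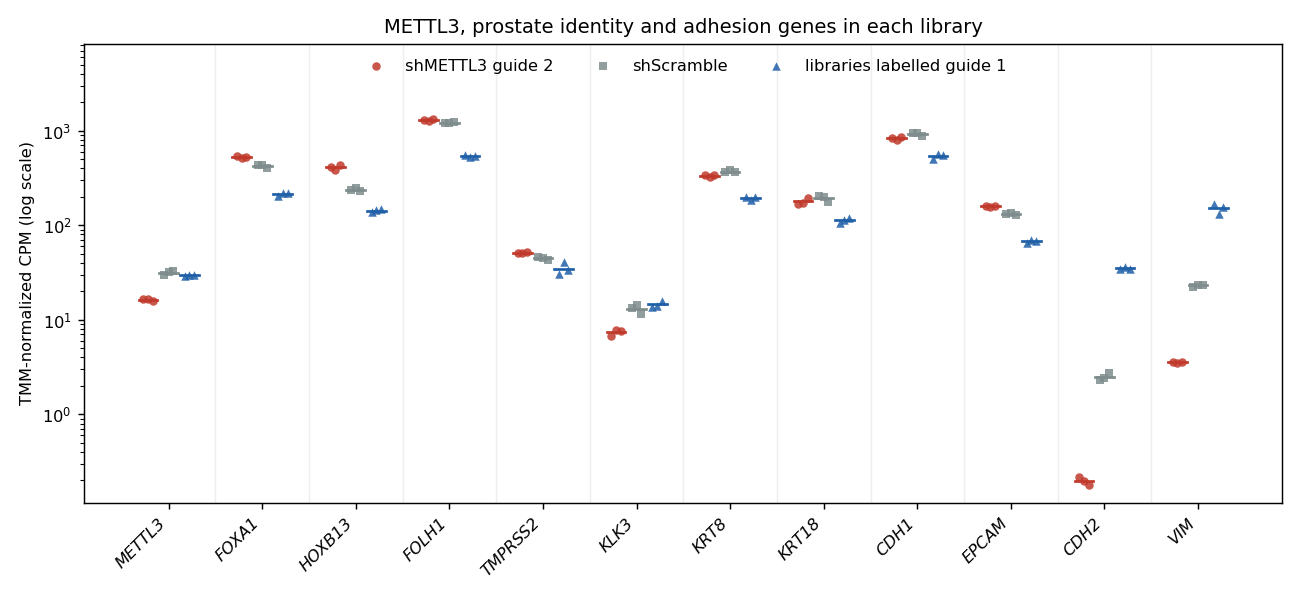
TMM-normalized CPM (log axis) of METTL3, 5 prostate identity genes, 2 keratins and 4 adhesion or filament genes in each of the 9 libraries; points are libraries and short lines are group means of 3. FOXA1, HOXB13, FOLH1, KRT8, KRT18, CDH1 and EPCAM sit higher in guide 2 (red circles) than in the libraries labelled guide 1 (blue triangles), CDH2 and VIM sit far lower, and shScramble (grey squares) lies between them for CDH2 and VIM. The shScramble means lie above those of guide 2 for KRT8, KRT18 and CDH1.

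Genes of other lineages separated the populations by far larger differences. Mesenchymal genes mark motile cells of connective tissue, and their transcription factors ZEB1, ZEB2, SNAI2 and TWIST1 repress epithelial genes in epithelial-mesenchymal transition. Of 27 tested mesenchymal and transition genes, 21 were lower in guide 2, 2 were higher and 4 were not called. The median log2 fold change was -3.59, or -3.49 with genes at the floor set to their bound. VIM, the intermediate filament of mesenchymal cells, was at 3.60, 3.51 and 3.58 CPM in guide 2 and at 169, 132 and 156 CPM in the libraries labelled guide 1. Between these lay shScramble at 23.1 ± 0.711 CPM, and the guides differed by a log2 fold change of -5.42 (SE 0.0954, adjusted p = 7.83e-23). Of the VIM exon bases, 25.4% overlap records on the other strand, among them VIM-AS1.

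ZEB2 had 5 reads in all 3 guide 2 libraries together and 1784 in the libraries labelled guide 1, a ratio of 290.7 with a 95% counting interval of 124 to 896 (exact, and for counting error only). Its mean was 20.7 ± 1.46 CPM in the libraries labelled guide 1 and 2.48 ± 0.254 CPM in shScramble. ZEB1 behaved alike, at 0.237 ± 0.14 against 20.8 ± 1.7 CPM. SNAI1, another repressor of CDH1, was one of the 2 genes higher in guide 2, at 3.21 ± 0.44 against 1.13 ± 0.33 CPM. FN1, which encodes fibronectin, was not called, with means of 60.3 and 58.0 CPM.

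Neuronal and neuroendocrine genes are followed in prostate cancer because luminal identity can give way to a neuroendocrine one under treatment. Of 30 tested, 22 were lower in guide 2 and 3 were higher (median log2 fold change -1.76). The neurofilament subunit NEFM had 4 reads over guide 2 (1, 0 and 3 per library) and 3764 in the libraries labelled guide 1 (1274, 1186 and 1304), a ratio of 766.5 with a counting interval of 299 to 2815. Its shScramble mean was 1.23 ± 0.308 CPM, and 38.9% of its exon bases overlap a record on the other strand. INA, another neurofilament protein, was at 0.161 ± 0.11 against 42.1 ± 4.7 CPM, and the neuronal ubiquitin hydrolase UCHL1 at 1.02 ± 0.27 against 99.4 ± 7.0 CPM. Among neuroendocrine markers, the granule protein CHGA was at 0.240 CPM in guide 2 and 0.780 CPM in the libraries labelled guide 1, and the synaptic vesicle protein SYP at 3.31 and 11.2 CPM. DDC, the decarboxylase that makes dopamine and serotonin, went the other way, at 308, 316 and 325 CPM in guide 2 and 85.5, 74.5 and 81.5 CPM in the libraries labelled guide 1 (log2 fold change 1.98, SE 0.0527, adjusted p = 1.15e-22).

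HOX genes lie in 4 chromosomal clusters and record the position of a cell along the body axis. Of 36 tested, 27 were lower in guide 2, 3 were higher and 6 were not called (median log2 fold change -2.78, or -2.57 with floor genes at their bound). HOXD10 had the largest fall among those named by rule, to 0.185 ± 0.0659 CPM in guide 2 from 29.7 ± 1.67 CPM in the libraries labelled guide 1, and 16.8% of its exon bases are shared with HOXD11. HOXB9 was lower too, at 14.97 ± 0.31 against 201 ± 7.9 CPM. The 3 that were higher in guide 2 were HOXB13, HOXC12 and HOXC13, which lie at the 5′ ends of their clusters. HOXC6, HOXC8 and HOXC9 were not called, with guide 2 means of 32.9, 9.25 and 12.2 CPM and guide 1 means of 30.6, 8.26 and 10.96 CPM.

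Among 20 tested oncofetal and stem cell genes, 10 were lower in guide 2 and 3 were higher (median -0.60). HMGA2, an architectural chromatin protein of embryonic cells, was at 0.248 ± 0.22 CPM in guide 2 and at 26.0 ± 2.83 CPM in the libraries labelled guide 1. IGF2BP1, IGF2BP2 and IGF2BP3 are RNA-binding proteins known as m6A readers, and all 3 were lower in guide 2. IGF2BP1 was at 2.81 ± 0.76 against 134 ± 6.2 CPM, with shScramble at 14.5 CPM. IGF2BP2 was at 0.978 against 43.8 CPM, whereas IGF2BP3 differed less, at 34.6 against 55.4 CPM. ALDH1A1, a retinaldehyde dehydrogenase used as a stem cell marker, was higher in guide 2 (48.6 ± 1.57 against 18.6 ± 1.98 CPM, log2 fold change 1.38). Only 9 of 18 basal epithelial genes were tested, of which 5 were lower and 3 higher. DST, a cytoskeletal linker of hemidesmosomes, was the one with more than 5 CPM, at 24.2 ± 2.16 against 76.5 ± 4.53 CPM.

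Epithelial cells are held together by adherens junctions built on CDH1, by desmosomes and by tight junctions, and they rest on a matrix of laminins and collagens bound by integrins. CDH1, the epithelial cadherin, was at 828, 803 and 861 CPM in guide 2 and at 506, 569 and 553 CPM in the libraries labelled guide 1. The groups did not overlap, but the log2 fold change of 0.62 (SE 0.0517, adjusted p = 1.7e-11) was near the fold limit. It was no longer called on library size alone (0.48), at a minimum mean of 1 CPM (0.57) or without replicate 1 of guide 1 (0.57). The shScramble mean of CDH1, 926 ± 42.9 CPM, was above those of both guides. CDH2, the neural cadherin, was at 0.217, 0.199 and 0.181 CPM in guide 2 and at 34.4, 36.0 and 34.9 CPM in the libraries labelled guide 1. Libraries of a guide lay close together, and the fold change was -7.43 on the log2 scale (SE 0.159, adjusted p = 1.08e-24), with shScramble at 2.49 ± 0.212 CPM. EPCAM, the epithelial cell adhesion molecule, was at 160, 157 and 161 CPM against 65.4, 69.9 and 68.2 CPM, a log2 fold change of 1.23 (SE 0.046, adjusted p = 2.53e-19). Its shScramble mean was 131 ± 3.98 CPM.

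Of 19 tested desmosome and adherens junction genes, 8 were higher in guide 2 and 5 lower (median 0.43). CDH3, the placental cadherin, rose most among the higher ones, at 51.1 ± 1.43 against 11.8 ± 0.79 CPM, with 11.1% of its exon bases under CDH3-AS1. The plaque proteins JUP and PKP3 were at 473 ± 28 against 174 ± 19 CPM and at 232 ± 5.9 against 85.6 ± 3.1 CPM. The desmosomal cadherin DSC3 was at 0.0867, 0.239 and 0.181 CPM in guide 2 and at 54.0, 51.6 and 56.5 CPM in the libraries labelled guide 1. That is the largest fall of this list, with a log2 fold change of -8.27 (SE 0.152, adjusted p = 3.73e-26), and shScramble was at 1.36 ± 0.0719 CPM. DSP and DSG2, a desmosomal plaque protein and a cadherin, were lower as well, at 85.1 against 208 CPM and at 134 against 207 CPM.

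Tight and gap junction genes were mostly higher in guide 2, with 15 of 26 higher and 5 lower (median 0.75). The claudins, which set the permeability of the tight junction, included CLDN4 at 363 ± 10 against 181 ± 4.9 CPM, CLDN7 at 537 ± 9.4 against 310 ± 12 CPM and CLDN3 at 120 against 61.4 CPM. The scaffold TJP1 was at 371 ± 17 against 220 ± 14 CPM. Gap junction proteins divided by member. GJB2 was at 32.7 ± 2.69 CPM in guide 2 and 6.44 ± 0.993 CPM in the libraries labelled guide 1, whereas GJA1 was at 0.547 ± 0.156 and 18.9 ± 1.34 CPM.

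Matrix genes were mostly lower in guide 2. Of 50 tested collagens and matrix proteins, 31 were lower and 9 higher (median -1.40). COL14A1, a fibril-associated collagen, was at 0.520, 1.20 and 0.816 CPM in guide 2 and at 104, 101 and 104 CPM in the libraries labelled guide 1 (log2 fold change -6.91, SE 0.114, adjusted p = 4.21e-27). NID1, a linker of the basement membrane, was at 1.70 ± 0.51 against 103 ± 7.7 CPM, and the basement membrane collagen COL4A1 at 0.626 ± 0.10 against 30.0 ± 2.5 CPM. SPOCK2, a secreted proteoglycan, was the largest rise, at 38.6 ± 1.26 against 5.85 ± 0.411 CPM. The cell surface and matrix heparan sulfate proteoglycans AGRN and SDC1 were also higher in guide 2, at 320 against 132 CPM and at 67.6 against 28.5 CPM.

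Integrins and laminins were divided, with 9 of 32 higher and 10 lower. Their median of 0.02 turned to -0.12 on library size alone, where 28.6% of the called members were higher in place of 47.4%. ITGA2, a collagen-binding subunit, was at 55.5 ± 2.63 against 29.6 ± 0.249 CPM, and the common partner ITGB1 at 378 against 202 CPM. LAMA4, a laminin chain of vessels and mesenchyme, was at 0.339 ± 0.149 against 20.9 ± 0.557 CPM. Of 34 tested other cadherins and protocadherins, 17 were lower and 9 higher (median -0.81). PCDH19 was at 22.5 ± 1.76 against 4.73 ± 0.367 CPM, and the giant cadherin FAT3 had 5 reads in guide 2 and 1295 in the libraries labelled guide 1 (ratio 211, counting interval 90.2 to 651). Of 46 tested immunoglobulin-like and neuronal adhesion genes, 22 were lower and 11 higher (median -0.46). NCAM2 was at 122 ± 2.29 CPM in guide 2 and 31.3 ± 1.95 CPM in the libraries labelled guide 1, whereas its paralog NCAM1 was at 0.624 and 55.0 CPM. The guidance ligand SLIT3 had 3 reads against 572 (ratio 155, counting interval 52.9 to 755).

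Growth factors and their receptor tyrosine kinases had the largest share of called genes of the signalling lists, 42 of 58 (72.4%), of which 31 were lower in guide 2 and 11 higher. The median was -1.26, or -1.13 with the 13 genes at the floor in guide 2 set to their bound. DDR2, a collagen receptor, was at 5.26 ± 0.38 against 170 ± 3.2 CPM, whereas its paralog DDR1 was at 286 against 102 CPM. The receptors FGFR1 and IGF1R were lower in guide 2, at 5.17 ± 0.12 against 51.5 ± 3.2 CPM and at 3.91 ± 0.68 against 50.1 ± 5.2 CPM. ERBB2 and ERBB3 were higher in guide 2, at 290 ± 11 against 141 ± 8.1 CPM and at 256 ± 7.5 against 104 ± 4.7 CPM. EGFR was not called, at 61.0 and 57.8 CPM. IGFBP3, which binds insulin-like growth factors, was at 86.8, 88.0 and 84.5 CPM in guide 2 and at 16.6, 18.3 and 17.5 CPM in the libraries labelled guide 1 (log2 fold change 2.31, SE 0.0594, adjusted p = 5.64e-23). GFRA1, the co-receptor for the glial factor GDNF, had 1 read in guide 2 and 441 in the libraries labelled guide 1 (ratio 359, counting interval 64.1 to 14220).

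Notch receptors are cut on contact with ligands of neighbouring cells and switch on HES and HEY repressors, and Hedgehog ligands act through SMO and GLI factors. Of 39 tested Notch and Hedgehog genes, 18 were lower in guide 2 and 8 higher (median -0.54). The Notch targets HEY1, HEY2 and HEYL were all lower. HEY1 was at 3.34 ± 0.42 against 141 ± 0.59 CPM, and HEYL had 5 reads against 516 (ratio 84.1, counting interval 35.8 to 260). The receptor genes NOTCH1 and NOTCH2 were not called, with NOTCH1 at 91.5 and 76.3 CPM and NOTCH2 at 108 and 152 CPM. LFNG, a glycosyltransferase that modifies Notch, and the ligand JAG2 were higher in guide 2, at 22.6 ± 0.368 against 8.94 ± 0.552 CPM and at 188 against 93.7 CPM. The Hedgehog genes SMO and GLI2 were lower, at 7.36 against 45.9 CPM and at 0.458 against 11.8 CPM.

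Of 53 tested genes of TGF-beta, BMP and activin signalling, 22 were lower and 5 higher (median -0.36). ID4, an inhibitor of helix-loop-helix factors, was at 1.43, 1.71 and 1.04 CPM in guide 2 and at 143, 104 and 116 CPM in the libraries labelled guide 1 (log2 fold change -6.42, SE 0.177, adjusted p = 3.17e-11). SMAD6, an inhibitor of BMP signals, was higher at 43.5 ± 1.03 against 16.7 ± 1.56 CPM. In the Wnt list, 26 of 47 tested genes were called, 11 higher and 15 lower (median -0.03). The ligands WNT10A and WNT7B and the receptor FZD4 were higher in guide 2, at 5.50 ± 0.481 against 1.54 ± 0.365, 33.0 ± 2.4 against 11.6 ± 0.14 and 60.7 ± 1.9 against 24.8 ± 1.7 CPM. The nuclear factors TCF7L1 and LEF1 were lower, at 0.174 ± 0.0821 against 5.53 ± 0.694 CPM and at 2.80 ± 0.17 against 16.2 ± 0.66 CPM. AXIN2, a common target of the pathway, was not called, at 4.51 and 6.20 CPM.

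Ephrins and their receptors divided evenly, with 6 of 21 higher and 7 lower, and their median of 0.04 was -0.10 on library size alone. EPHA1 was at 62.4 ± 2.21 against 22.4 ± 0.943 CPM and EPHA4 at 0.255 ± 0.0646 against 16.9 ± 1.53 CPM. Among 31 tested genes of MAP kinase feedback and the immediate early response, 8 were higher and 10 lower (median -0.01), and on library size alone 28.6% of the called members were higher in place of 44.4%. ATF3, a stress-induced factor, was at 28.6, 27.7 and 31.4 CPM in guide 2 and at 215, 171 and 194 CPM in the libraries labelled guide 1 (log2 fold change -2.73, SE 0.0727, adjusted p = 1.48e-17). JUN was at 60.7 ± 0.33 against 313 ± 33 CPM. MYC was higher in guide 2, at 236 against 144 CPM.

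Most cell cycle genes were not called (23 of 37), and 5 were higher and 9 lower in guide 2. Their median was 0.01, and -0.13 on library size alone, where a smaller share of the called members was higher than the 35.7% with TMM. The G1 cyclins went opposite ways. CCND1 was at 254, 246 and 257 CPM in guide 2 and at 98.3, 113 and 101 CPM in the libraries labelled guide 1, a log2 fold change of 1.28 (SE 0.0546, adjusted p = 1.39e-17), with 10.3% of its exon bases under LTO1 on the other strand. CCND2 was at 0.358 ± 0.179 against 45.3 ± 2.08 CPM, a log2 fold change of -6.97 (SE 0.148, adjusted p = 8.08e-25). The inhibitor CDKN2A, the locus of p16 and p14ARF, was at 7.44 ± 0.93 against 175 ± 23 CPM. Proliferation markers MKI67 and PCNA were not called, at 147 and 207 CPM and at 152 and 168 CPM.

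Interferon-stimulated genes encode antiviral proteins and parts of antigen presentation. Of 45 tested, 25 were higher in guide 2, 4 were lower and 16 were not called (median 0.69). OAS3, which makes the activator of the antiviral RNase L, was at 34.2, 36.8 and 37.7 CPM in guide 2 and at 8.32, 10.3 and 10.7 CPM in the libraries labelled guide 1 (log2 fold change 1.89, SE 0.0888, adjusted p = 4.49e-17). Here shScramble, at 9.47 ± 0.901 CPM, lay beside the libraries labelled guide 1. The tetherin gene BST2 was at 200 ± 3.4 against 68.5 ± 5.9 CPM and ISG15 at 53.0 ± 2.4 against 20.8 ± 3.5 CPM. The exceptions were HERC5, IFI27, IFIT5 and UBE2L6, with HERC5 at 0.620 ± 0.154 against 8.07 ± 0.704 CPM. In the cytokine, chemokine and NF-kB list, 15 of 40 were higher and 9 lower (median 0.42). The secreted cytokine IL32 was at 53.6 ± 4.16 against 15.5 ± 1.22 CPM and STAT3 at 224 ± 8.3 against 101 ± 2.2 CPM, whereas SOCS2, a feedback inhibitor of growth hormone signals, was at 0.743 ± 0.147 against 11.2 ± 0.76 CPM.

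Prostate cells inactivate androgens by attaching glucuronic acid, a step carried out by UGT2B15, UGT2B17 and related enzymes. Of 25 tested genes of androgen synthesis, conversion and glucuronidation, 13 were higher in guide 2 and 5 lower (median 0.62). UGT2B17 was at 55.5, 54.6 and 59.97 CPM in guide 2 and at 4.25, 3.74 and 2.81 CPM in the libraries labelled guide 1. Every guide 2 library was far above every guide 1 library, with shScramble at 6.68 ± 1.30 CPM and a log2 fold change of 3.98 (SE 0.121, adjusted p = 5.45e-17). All 7 tested UGT2B genes were higher in guide 2, among them UGT2B15 at 165 ± 3.5 against 16.4 ± 2.0 CPM, UGT2B11 at 59.5 ± 2.4 against 7.22 ± 0.79 CPM and UGT2B10 at 10.3 ± 1.49 against 0.717 ± 0.153 CPM. These genes lie together on chromosome 4 and are near-identical in sequence, so reads may have been split between them and the single values are uncertain. HSD17B6, a dehydrogenase of androgen precursors, was the largest fall, at 2.17 ± 0.422 against 6.24 ± 0.137 CPM. The reductase genes SRD5A1 and SRD5A3 were not called.

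Cholesterol is made from acetyl-CoA by enzymes under the control of the transcription factors SREBF1 and SREBF2. Of 35 tested genes of cholesterol synthesis and uptake, 18 were higher in guide 2 and 2 lower (median 0.65). The regulator INSIG1 was at 322 ± 24 against 97.2 ± 9.6 CPM and SREBF1 at 949 against 353 CPM. The lowest fitted log2 fold change of the list was -3.24, in a gene that the naming rule did not take. That gene was at the floor in guide 2, and the lowest value was -2.17 with floor genes set to their bound. SQLE, the squalene epoxidase, was also lower, at 47.5, 47.4 and 52.2 CPM in guide 2 and 72.6, 72.6 and 79.3 CPM in the libraries labelled guide 1. Its log2 fold change of -0.61 (SE 0.0551, adjusted p = 7.37e-11) was no longer called without replicate 1 or replicate 2 of guide 2 (-0.58 in both) or without replicate 3 of guide 1 (-0.56).

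Fatty acid genes moved in the same direction, with 24 of 56 tested higher in guide 2 and 9 lower (median 0.53). FADS2, the delta-6 desaturase, was at 1111, 1137 and 1204 CPM in guide 2 and at 199.8, 240.0 and 220.8 CPM in the libraries labelled guide 1. The difference of 2.39 on the log2 scale (SE 0.0602, adjusted p = 9.04e-22) was larger than the spread within either group, and shScramble was at 329.5 ± 18.8 CPM. FASN, ACLY and ACACA, the enzymes that build palmitate, were all higher in guide 2, with ACLY at 539 against 310 CPM and ACACA at 407 against 236 CPM. The elongases ELOVL2 and ELOVL4 and the lipid droplet protein PLIN2 were lower in guide 2. ELOVL2 was at 0.261 ± 0.136 against 18.2 ± 0.281 CPM, and PLIN2 at 0.698 against 31.7 CPM.

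In the list of the TCA cycle and pyruvate entry, 18 of 37 tested genes were higher in guide 2 and 0 were lower at the fold limit (median 0.56). The other 19 were not called, with log2 fold changes down to -0.56. GLS2, a mitochondrial glutaminase, had the largest fold, at 9.99 ± 0.129 against 2.91 ± 0.273 CPM, but 77.1% of its exon bases overlap SPRYD4 on the other strand. OGDH and SDHA, subunits of the oxoglutarate and succinate dehydrogenases, were at 405 ± 13 against 171 ± 1.8 CPM and at 349 ± 2.0 against 149 ± 0.82 CPM. MDH2, the mitochondrial malate dehydrogenase, was at 941 ± 87 against 535 ± 54 CPM. Subunits IDH3A, IDH3B and IDH3G of the NAD-linked isocitrate dehydrogenase were not called, and IDH3B was at 76.1 and 95.6 CPM. Of 49 glycolytic and hypoxia-induced genes, 11 were higher and 10 lower (median 0.15), and their called share of 42.9% was under the 47.3% of all genes. The lactate exporter SLC16A3 was at 236 ± 9.63 against 62.3 ± 1.66 CPM, whereas EPAS1, which encodes HIF-2 alpha, was at 4.25 ± 0.697 against 11.5 ± 1.70 CPM. LDHA, HIF1A and PGK1 were not called.

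**Figure D4:**
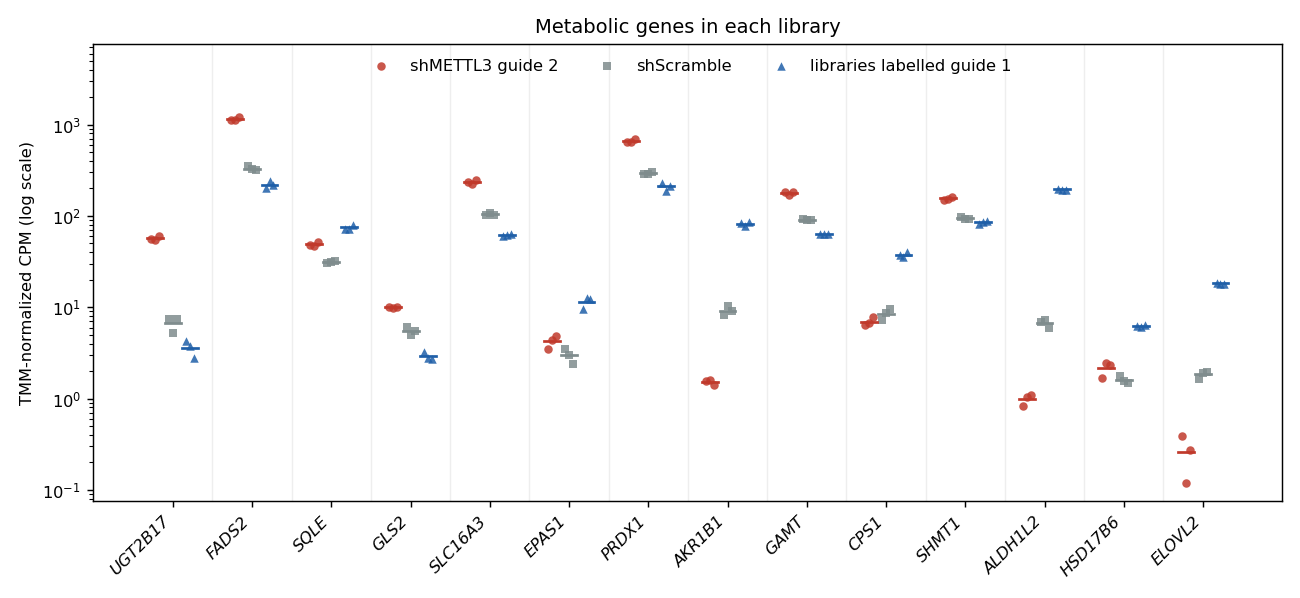
TMM-normalized CPM (log axis) in each of the 9 libraries of 14 metabolic genes named by the fixed rule, with points for libraries and short lines for group means of 3. UGT2B17 and FADS2 stand higher in guide 2 (red circles) than in both other groups, while ALDH1L2, AKR1B1 and ELOVL2 stand far higher in the libraries labelled guide 1 (blue triangles), with shScramble (grey squares) between.

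One-carbon metabolism and the amino acid response had the lowest share of called genes of all 29 lists, 15 of 48 (31.2%, under the 47.3% of all genes), with 2 higher and 13 lower in guide 2 (median -0.09). ALDH1L2, the mitochondrial formyltetrahydrofolate dehydrogenase, was at 0.824, 1.04 and 1.09 CPM in guide 2 and at 199, 195 and 195 CPM in the libraries labelled guide 1. With -7.63 on the log2 scale (SE 0.0898), the adjusted p was 4.33e-30, and shScramble was at 6.69 ± 0.711 CPM. SHMT1, the cytosolic serine hydroxymethyltransferase, was higher at 156 ± 5.25 against 85.5 ± 3.24 CPM. Targets of the amino acid response such as PSAT1, TRIB3 and CHAC1 were not called, with CHAC1 at 73.0 and 85.6 CPM.

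Of 40 arginine, polyamine and nucleotide genes, 11 were higher and 10 lower (median 0.17). GAMT, which makes creatine, was at 178 ± 6.28 against 63.1 ± 0.323 CPM, and CPS1, the first enzyme of the urea cycle, at 6.94 ± 0.732 against 37.6 ± 2.71 CPM. The ornithine decarboxylase gene ODC1 was higher, at 577 against 376 CPM. Of 64 tested NRF2, glutathione and detoxification genes, 24 were higher and 14 lower (median 0.30), and on library size alone 53.1% of the called members were higher in place of 63.2%. PRDX1, a peroxide scavenger, was at 647, 637 and 690 CPM in guide 2 and at 228, 189 and 214 CPM in the libraries labelled guide 1 (log2 fold change 1.64, SE 0.056, adjusted p = 9.59e-20), with 24.9% of its exon bases under MMACHC. NQO1, a quinone reductase induced by NRF2, was at 329 ± 7.9 against 122 ± 2.9 CPM. AKR1B1, the aldose reductase, was lower at 1.52 ± 0.101 against 82.6 ± 4.66 CPM. GSTP1, a glutathione transferase whose promoter is commonly methylated in prostate cancer, was at 2.60 ± 0.17 CPM in guide 2, 90.5 ± 4.2 CPM in the libraries labelled guide 1 and 8.29 CPM in shScramble.

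Over all tested genes with at least 10 CPM in the higher group, the 5 largest rises in guide 2 were the lncRNA ENSG00000233251, UGT2B17, GASK1B, UGT2B10 and FAM111B. ENSG00000233251 was at 56.9, 56.4 and 61.7 CPM against 2.25, 2.74 and 2.51 CPM (log2 fold change 4.54, SE 0.0925, adjusted p = 3.59e-25), and 10.6% of its exon bases overlap other records, CCDC85A among them. GASK1B, a Golgi kinase-like protein, was at 26.9 ± 1.71 against 1.82 ± 0.284 CPM, and the replication-linked protease FAM111B at 42.8 ± 1.85 against 3.16 ± 0.522 CPM. Among the 5 largest falls were RASL10B, AFF2, SLC7A3 and NEFM. RASL10B, a Ras-like GTPase, and AFF2, the gene of a fragile X site, had 0 reads in all guide 2 libraries and were at least 84.0-fold and at least 81.2-fold lower there, against a floor of 3 counts per library. The arginine transporter gene SLC7A3 had 1 read against 1805 (ratio 1470, counting interval 264 to 58110).

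The called genes were not spread evenly over expression levels. Genes were put in 3 equal bins of mean CPM. In the lowest bin, 15.6% of 6426 genes were higher in guide 2 and 43.0% lower, and in the highest bin 22.1% were higher and 10.5% lower. Medians went from -0.55 to 0.17 over these bins. The mean CPM came from the same 6 libraries that were compared. Genes at the floor in 1 guide were tested only because they were higher in another group. Bin and direction are therefore not separate measures. Among record types, 26.5% of protein-coding genes and 33.3% of lncRNA genes were lower. By exon length, the share lower was 27.3% in the shortest of 3 equal bins and 29.9% in the longest, and the share higher was 23.9% and 14.6%. Expression level, record type and length are related to each other, and their parts in this were not tested.

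Along the chromosomes, windows of 50 neighbouring tested genes also differed. Of 1822 overlapping windows, 155 had a median log2 fold change of -0.5 or lower and 11 had one of 0.5 or higher. On library size alone these numbers were 312 and 2, so the count of windows depends on the scaling. The lowest lay on chromosome 13, from DIAPH3 to RAP2A (chr13:59665583-97469128, median -1.63), where 33 of 50 genes were lower in guide 2 and 4 were higher. The lowest windows of the chromosomes that followed lay on chromosome X from BEX4 to ALG13 (chrX:103215092-111760649, median -1.27), on chromosome 1 from ALG6 to PIGK (chr1:63367590-77219430, median -1.23) and on chromosome 6 from RNU6-1016P to MDN1 (chr6:75644084-89819723, median -1.20). The highest lay on chromosome 15 from CHEK2P2 to PDCD6IPP2 (chr15:20282744-28859007, median 0.82) and on chromosome 1 from LINC02593 to FNDC10 (chr1:916865-1600096, median 0.65). By chromosome, the share of genes lower in guide 2 ran from 21.5% on chromosome 17 to 38.8% on chromosome X, and the share higher from 14.6% on chromosome 8 to 25.4% on chromosome 11. Without the genes at the floor in 1 guide, 88 of 1742 windows were at -0.5 or lower and 14 at 0.5 or higher, an alternative chosen after seeing the data.

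**Figure D5:**
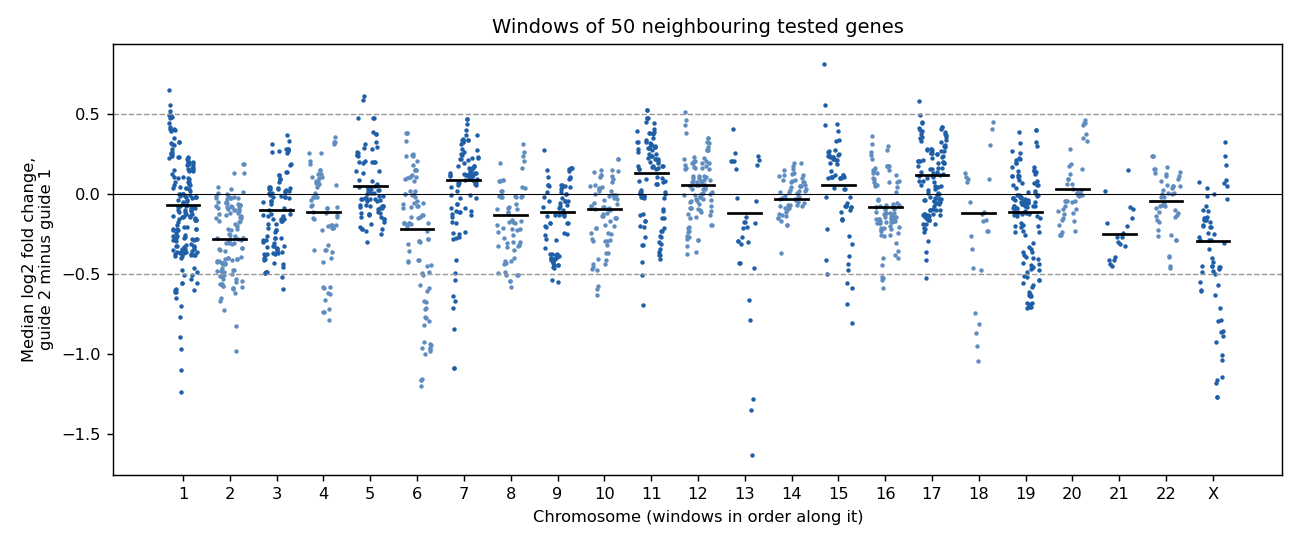
Median log2 fold change, guide 2 minus guide 1, of each window of 50 neighbouring tested genes, drawn in order along each of 23 chromosomes (points), with the median of all genes of the chromosome as a black line and dashed lines at -0.5 and 0.5. Most windows lie between the dashed lines, with runs below -0.5 on chromosomes 1, 2, 6, 13, 19 and X, among others.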

How the data were processed

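RNA-seq libraries of 3 groups of 3 were assigned from their titles. The authors trimmed reads (Trim Galore, cutadapt, FastQC), mapped them with STAR (GRCh38) and assigned them to Ensembl genes with featureCounts. The deposited values are raw counts per gene. The strand setting and the handling of reads with several matches are not given in the sources used here, so overlapping genes and near-identical copies are uncertain. Of 60675 genes, 56558 (93.2%) had a symbol in GENCODE v44.

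Counts were filtered with filterByExpr (minimum count 10, minimum total 15) and then scaled with TMM over the genes kept. They were tested with edgeR 4.0.16 (R 4.3.3, quasi-likelihood F test, robust), with all 9 libraries in 1 model and the contrast guide 2 minus guide 1. P-values were adjusted by Benjamini-Hochberg over all 19278 genes. A gene was called at an adjusted p under 0.05 and a fold of at least 1.5. Means ± SD are over 3 libraries, and SE is that of the log2 fold change. At 3 counts per library (0.102 to 0.126 CPM before TMM scaling) a gene was taken to be at the floor. Depth was 23790004 to 29422737 counts in the 6 libraries compared.

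The comparison, its members and the gene lists were chosen with earlier results of these data known. Genes were named by rule: METTL3, prostate identity and adhesion genes, the largest called fold of each list in each direction with at least 5 CPM in the higher group and no overlap, and the 5 largest over all genes in each direction with at least 10 CPM. Not every gene of the rule is reported here. On counts simulated from means over all 9 libraries (18735 genes tested), 196 of 200 genes given a change were called with its sign (96 of 100 changed by 2-fold, 100 of 100 by 4-fold) and 4 unchanged ones were called. DESeq2 1.42.0 called 193 and 1. The changed genes had a mean of at least 1 CPM, with as many raised as lowered. In the data 47.3% of genes were called, more of them lower, so the simulation does not measure scaling or error rates there. Alternatives were DESeq2, its size factors in edgeR, library size alone, no filter, a mean of at least 1 CPM, the 6 guide libraries alone, a replicate block, leaving out 1 library at a time, the adjusted p alone, glmTreat, and, added after seeing the data, only genes above the floor in both guides.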

Additional observations from a re-analysis of the deposited data

How the results depend on the processing

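The number of called genes was 9125 (3683 higher and 5442 lower in guide 2). It was 8925 with DESeq2, 9128 with its size factors in edgeR, 9025 on library size alone (2822 higher, 6203 lower), 10412 without a filter, 6944 at a mean of at least 1 CPM, 8842 with the 6 guide libraries alone, 7117 with glmTreat and 8343 for genes above the floor in both guides. Leaving out 1 library gave 9074 to 9362. With the adjusted p alone it was 14386, of which 6693 were higher. METTL3 kept its direction and call under all alternatives run for it. The number of list genes called was 675, and 576 to 917 under the alternatives run for it, which left out the one on genes above the floor. Of 870 counts for single lists, 46 moved by more than 1.5 times. Windows past 0.5 numbered 166, against 314 on library size alone (312 lower, 2 higher) and 102 for genes above the floor. With bins set by CPM without TMM factors, the share lower in the lowest expression bin was 42.8%, against 0.0077% without a filter, where that bin holds mostly genes with few or no reads. Of 1110 values of 74 named genes under alternatives, 1098 kept their side of the call, 10 fell short of it (CDH1, KRT18 and SQLE) and 2 passed it (TMPRSS2), and 0 changed sign. With glmTreat, which tests against the fold limit, adjusted p was 0.254 for CDH1, 0.0926 for KRT18 and 0.294 for SQLE. The replicate block gave 9027 called genes (3653 higher, 5374 lower). Same-numbered libraries of the 2 guides had deviations that correlated at 0.0280, 0.00824 and 0.0529, so the numbers were not taken to pair the samples. Reads per gene limit what can be said of genes at the floor.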

Other observations

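Transcripts of the mitochondrial genome, which encodes subunits of the respiratory chain, made up 3.78% to 4.92% of the assigned reads in the guide 2 libraries and 5.08% to 5.30% in the libraries labelled guide 1. The ranges did not overlap, and this share was not tested.

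Genes at or under 3 counts in every library of only 1 guide were far more numerous for guide 2, with 773 tested genes at the floor only there and 16 only in the libraries labelled guide 1. Such genes passed the count filter only through other groups, where they were higher, so these numbers depend on the filter. Depth differed too, at 23790004 to 26705741 assigned reads in guide 2 and 26671775 to 29422737 in the libraries labelled guide 1. The difference was not tested.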
